A study of Mus musculus with 52 samples.

Results

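The circadian clock and PAR bZIP genes described here are 10 of the 27525 genes quantified in bulk RNA-seq of subcutaneous KPC tumors. They are Arntl, Clock, Per1, Per2, Per3, Cry1, Dbp, Tef, Hlf and Nfil3, and all 10 passed the filter on low values in each comparison below. The genes were selected by name, after Arntl, Dbp and Tef had been seen to separate combination-treated from untreated tumors, so the values of the 10 genes in that comparison are given as a description without a test. The first experiment (ST#23) had 4 groups of 8 tumors, with 12.8 to 15.6 M (mega) recovered reads per library. One group was untreated and another had a single intratumoral injection of 2 µg ADU-S100, an analog of cGAMP that activates STING. The third had 4 intraperitoneal injections of 4H8 (anti-LTβR), an antibody that activates LTβR, and the last had both agents (combination). All were collected on day 14. A second experiment (ST#15) had 20 tumors in 4 sets of 5 lettered A to D. Its description labels name A control, B ADU-S100, C anti-LTbR Ab and D Combination, but its treatment labels read Combination for all 20 tumors, so these sets are called by letter. All tumors grew from the KxPxCx cell line, a single line derived from a genetically engineered mouse with Cre driven by the Pdx1 promoter, in young adult male C57BL/6NHsd mice with an intact immune system. The clock time at which tumors were collected is not given in the sources used here.

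In the molecular clock, the proteins encoded by Arntl (BMAL1) and Clock pair and activate genes with an E-box in their promoters, among them the Per and Cry genes and Dbp. The PER and CRY proteins then repress that pair, and the nuclear receptors NR1D1 and NR1D2 repress Arntl through ROR elements, at which the ROR receptors activate. DBP, TEF and HLF are the PAR bZIP activators of genes with a D-box, and NFIL3 represses through the same element. In many peripheral tissues of the mouse the transcripts of Arntl and of Dbp and Per3 peak at opposite times of day.

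The elements named above are short sequences, and the promoters of 4 of the genes in which one was found are shown so that it can be read in place. RefSeq promoter windows (GRCm38.p6, 250 bases before to 50 after a transcript start) were found for 9 of the 10 genes, in 14 windows. The letters searched on both strands were CACGTG for the E-box, TTATGTAA and TTACGTAA for the D-box, and ANTAGGTCA and ANTGGGTCA for the ROR element. Among all 32851 windows, 7.15% held the E-box, 1.06% the D-box and 1.45% the ROR element. Capitals mark the matches. The first line is a 29-base stretch after the start of one Arntl transcript (chr7:113207529-113207557, plus strand), and the others are the 250 bases before a start of Nfil3 (chr13:52981040-52981289, minus strand), Tef (chr15:81802423-81802672, plus strand) and Per3 (chr4:151044666-151044915, minus strand).
Arntl: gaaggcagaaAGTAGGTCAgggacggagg
Nfil3: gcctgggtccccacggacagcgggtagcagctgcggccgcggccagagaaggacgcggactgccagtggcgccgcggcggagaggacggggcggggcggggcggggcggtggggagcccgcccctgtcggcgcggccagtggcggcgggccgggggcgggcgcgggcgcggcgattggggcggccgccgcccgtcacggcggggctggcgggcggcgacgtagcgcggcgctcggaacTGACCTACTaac
Tef: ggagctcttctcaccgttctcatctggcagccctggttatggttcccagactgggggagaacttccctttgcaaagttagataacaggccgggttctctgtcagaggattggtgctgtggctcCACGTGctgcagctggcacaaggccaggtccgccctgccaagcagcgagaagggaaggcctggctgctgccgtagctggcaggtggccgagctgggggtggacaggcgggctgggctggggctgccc
Per3: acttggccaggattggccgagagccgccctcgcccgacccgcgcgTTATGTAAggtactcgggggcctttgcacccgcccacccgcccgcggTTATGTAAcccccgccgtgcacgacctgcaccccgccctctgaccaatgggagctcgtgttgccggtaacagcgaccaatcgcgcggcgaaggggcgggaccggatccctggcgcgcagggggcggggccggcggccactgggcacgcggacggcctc
Arntl and Nfil3 each held a ROR element, starting at position 29 from the start in Arntl and 12 bases before it in Nfil3. Tef held the E-box in both of its windows, 127 and 138 bases before the start. Per3 held the D-box at 2 positions, 205 and 158 bases before the start. Per1 and Cry1 held the E-box 166 and 60 bases before the start, and the windows of Dbp, Hlf and Clock held none of these letters. A match is a description of the sequence and says nothing of what binds there.

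Across the 4 groups of the first experiment, the mean of Arntl went down in the order untreated, ADU-S100, anti-LTβR and combination, while the means of Dbp, Tef, Hlf, Per2 and Per3 went up in the same order. Arntl (ENSMUSG00000055116, chromosome 7, 113207465 to 113314126, plus strand, GRCm38) had a lowest, median and highest normalized count of 785, 875 and 988 in untreated tumors. The corresponding values were 645, 768 and 1019.8 with ADU-S100, 402, 490.4 and 554 with anti-LTβR, and 283, 328 and 404 with the combination. Untreated and ADU-S100 tumors overlapped, every anti-LTβR tumor was below both of these groups, and the ranges of anti-LTβR and combination tumors overlapped only between 402 and 404. The means were 879 ± 80.5, 790.3 ± 119, 491 ± 43.4 and 337 ± 47.9 (SD, n = 8 each).

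Dbp (ENSMUSG00000059824, chromosome 7, 45705088 to 45710203, plus strand) showed the opposite order. Its lowest, median and highest normalized counts were 157, 251 and 309 in untreated tumors and 177, 338 and 366 with ADU-S100. They were 449.8, 629 and 770.2 with anti-LTβR and 671, 849.5 and 1218 with the combination. No tumor given anti-LTβR, alone or in combination, had as little Dbp as any tumor without it. The Dbp means were 238 ± 59.8, 312 ± 62.8, 625 ± 91.4 and 864 ± 176 (SD, n = 8 each).

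Tef (chromosome 15, 81802421 to 81826863, plus strand), another PAR bZIP activator, had means of 908 ± 119, 1123 ± 198, 1536 ± 148 and 1873 ± 256 normalized counts in the same order of groups (SD, n = 8 each). Its highest untreated tumor (1047) was below its lowest anti-LTβR tumor (1345) and its lowest combination tumor (1599). Hlf (chromosome 11, 90336536 to 90390895, minus strand) had the fewest reads of the 10 genes, with 6 to 124 recovered reads per library, and its means were 15.9 ± 8.56, 19.2 ± 9.18, 48.4 ± 9.49 and 90.1 ± 23.8. Every combination tumor (64.0 or more) exceeded every anti-LTβR tumor (61.7 or less) in Hlf, the only one of the 10 genes for which these 2 groups did not overlap. Nfil3 (chromosome 13, 52967209 to 52981073, minus strand), which opposes the PAR bZIP factors at D-boxes, went the other way, from 708 ± 118 and 694 ± 81.0 to 556 ± 46.4 and 472 ± 47.8. Its highest combination tumor (519) was below its lowest untreated tumor (556).

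Among the Period genes, whose products are the repressing arm of the clock, Per2 and Per3 followed Dbp and Per1 did not separate the groups. The normalized counts of Per2 ran from 146 to 249 in untreated tumors, 160.0 to 289 with ADU-S100, 304 to 417 with anti-LTβR and 326 to 476 with both. Per3 ranged from 252 to 459, 276 to 507, 504 to 613 and 495 to 719. For both genes, untreated and ADU-S100 tumors overlapped, as did anti-LTβR and combination tumors. For Per3, ADU-S100 tumors also overlapped with anti-LTβR and combination tumors. Per1, which is also induced by many acute signals, spread by more than the groups differed, from 499.6 to 1281 in untreated and 747 to 2039 in combination tumors. Cry1, the partner of the PER proteins, ranged from 111 to 184, 94.4 to 223, 139 to 191 and 162 to 195 in the same order. Clock, the partner of Arntl, averaged 1253 ± 155, 1369.8 ± 53.5, 1213 ± 103 and 978 ± 135 (SD, n = 8 each), so that it was highest with ADU-S100 and lowest with the combination.

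Per kilobase of exon, levels of the 10 genes can be set beside each other. In untreated tumors Nfil3 was highest at 349 normalized counts per kilobase, followed by Per1 at 157, Arntl at 117, Tef at 115, Clock at 91.3 and Dbp at 79.4, while Cry1 (43.1), Per2 (34.1) and Per3 (33.6) were lower and Hlf was at 2.38. In combination tumors the order was Dbp at 289, Tef at 238, Nfil3 at 233, Per1 at 214, Clock at 71.3, Per2 at 67.8, Per3 at 65.1, Cry1 at 53.6, Arntl at 44.9 and Hlf at 13.5. Dbp thus stood sixth in untreated and first in combination tumors on this scale, and Arntl moved from the third to the ninth place.

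**Figure D1:**
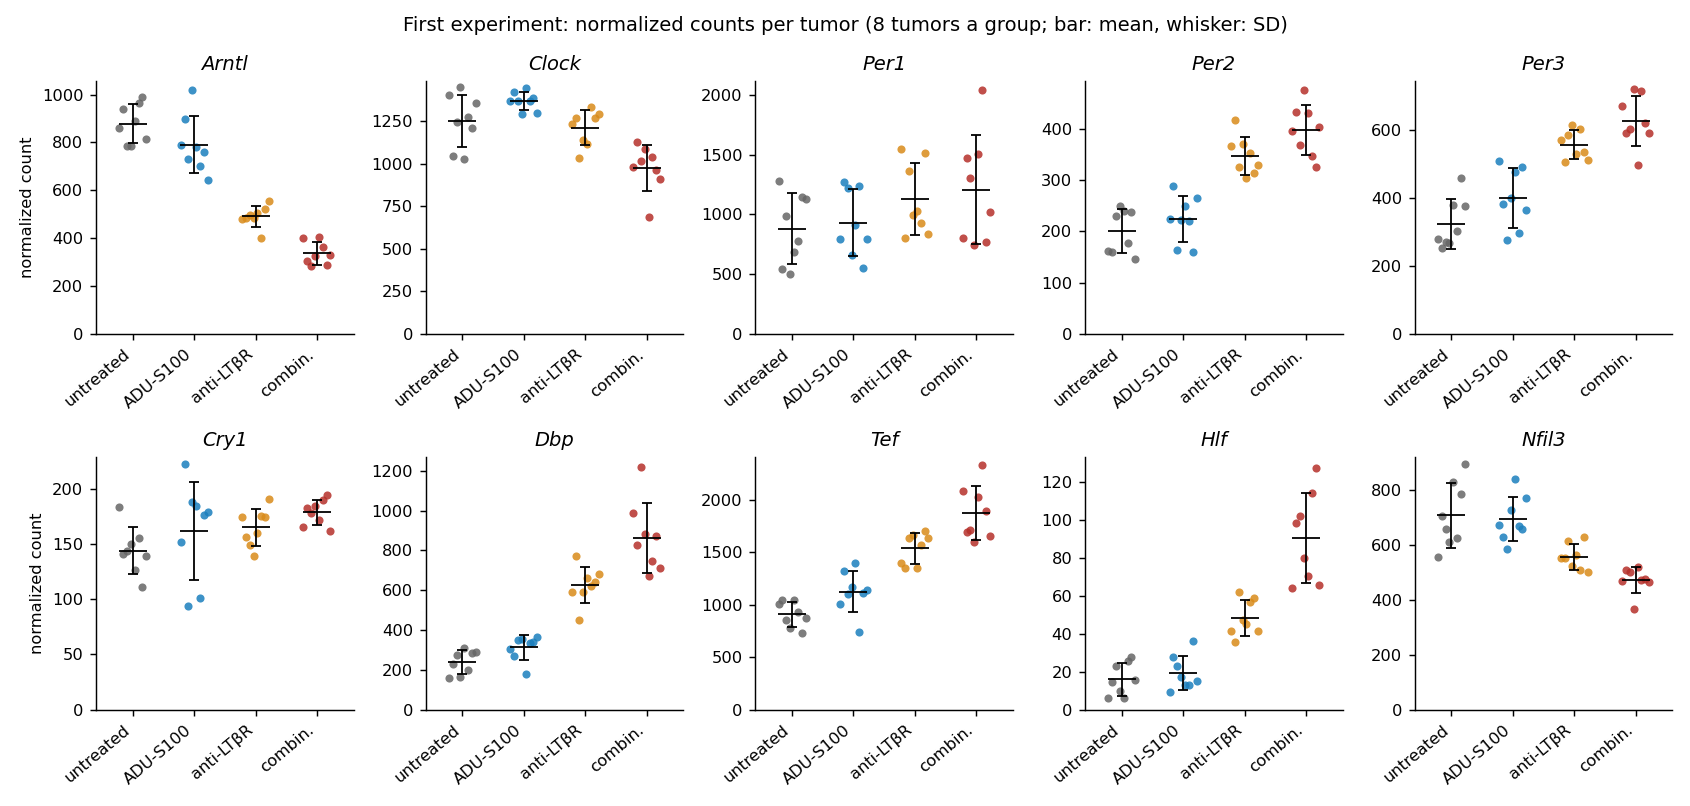
Normalized counts (y axis, linear from 0) of the 10 genes in the first experiment, by group (x axis), with 1 point per tumor, the mean as a bar and the SD as a whisker. Arntl and Nfil3 have their lowest means in combination tumors, Dbp, Tef, Hlf, Per2 and Per3 have higher means in anti-LTβR and combination tumors than in the other groups, and the points of Per1 and Cry1 overlap in all 4 groups.

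Combination and untreated tumors, the comparison in which these genes were first noticed, differed by more than 2-fold in Arntl, Dbp, Tef, Hlf and Per2. The log2 differences of normalized count + 1 (combination minus untreated, with SE) were -1.39 (0.0829) for Arntl, 1.88 (0.156) for Dbp, 1.04 (0.0912) for Tef and 2.57 (0.301) for Hlf. They were 1.01 (0.122) for Per2, 0.97 (0.119) for Per3, -0.57 (0.0965) for Nfil3, -0.36 (0.0960) for Clock, 0.32 (0.0865) for Cry1 and 0.44 (0.241) for Per1. The groups did not overlap for 7 of the 10 genes, and for 10.7% of all 16909 genes. This count was fixed in part by how the genes were selected and is not read further. In limma, 43.2% of all genes were past an adjusted p of 0.05, the threshold used throughout (19.6% higher and 23.6% lower). Markers of other cell types differed in the same comparison. All 5 fibroblast markers were past the threshold and higher, with summed levels of 58683 to 93933 normalized counts in untreated and 100606 to 372656 in combination tumors. Of the leukocyte markers 4 of 5 were past the threshold, all higher (4573 to 6629.8 against 6349.7 to 10049), as were all 5 endothelial markers (1088 to 1617 against 1888 to 2713). Of the tumor epithelial markers 3 of 5 were past the threshold and lower, namely Krt8, Krt18 and Krt19, with sums of 15947 to 28939 against 6829 to 14654. Skeletal muscle markers, none of them called, varied widely within every group, with sums of 5104 to 110869.9 in untreated and 6121 to 324487 in combination tumors. Of 4 exocrine pancreas markers 2 were in the table, with sums of 20.1 to 63.6 over all 4 groups. None of the markers in the table was at 0 throughout a group. Their part in the differences of the clock genes was not tested, and in bulk tumors fewer cells of a type and less RNA per cell cannot be told apart.

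Anti-LTβR and ADU-S100 tumors share no library with that comparison, and their difference was tested. In anti-LTβR tumors Arntl was lower than in ADU-S100 tumors, with a log2 difference of -0.68 (SE 0.0823, limma adjusted p = 0.00141), and no tumors overlapped. Dbp was 2.02-fold higher (log2 difference 1.02, SE 0.135, limma adjusted p = 0.00208), also without overlap. Hlf was 2.62-fold higher (1.39, SE 0.236, limma adjusted p = 0.00600), Tef 1.38-fold (0.47, SE 0.102, adjusted p = 0.0167), Per2 1.57-fold (0.65, SE 0.113, adjusted p = 0.00621) and Per3 1.42-fold (0.50, SE 0.113, adjusted p = 0.0188). Nfil3 fell by 0.31 on the log2 scale (SE 0.0691, limma adjusted p = 0.0171) and Clock by 0.18 (SE 0.0483, adjusted p = 0.0372). For Per1 the log2 difference was 0.29 (95% interval -0.08 to 0.66, adjusted p = 0.378) and for Cry1 0.07 (-0.23 to 0.37, adjusted p = 0.841).

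Thus 8 of the 10 genes were past the threshold between the 2 single agents, 5 higher and 3 lower with anti-LTβR, where 6.42% of the 16649 genes tested were called (3.38% higher and 3.04% lower). The groups did not overlap for 3 of the 10 genes (Arntl, Dbp and Per2), against 0.625% of all genes tested. The median log2 difference was 0.38 over the 10 genes and -0.01 over all genes tested. The calls for Tef, Nfil3 and Clock were lost when replicate numbers were added as a block, under which 2.67% of all genes were called, and that for Clock was also lost with no filter on low values or with all 4 groups in a single fit. Among cell type markers, 1 of 5 leukocyte markers (Cd68) was past the threshold, and none of the fibroblast, endothelial, epithelial, muscle, adipocyte or keratinocyte markers was. Fibroblast sums were 39746 to 114072 with ADU-S100 and 46236 to 98968 with anti-LTβR, and leukocyte sums were 5076 to 6621 and 5701 to 7263. Skeletal muscle sums were 6334 to 202908 and 6092 to 146439.6. Of 8 heat and cold responsive genes, 5 were past the threshold, all lower with anti-LTβR, with summed levels of 27872 to 35195 with ADU-S100 and 25545 to 28956 with anti-LTβR, and the part of these lists in the differences of the clock genes was not tested.

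Between ADU-S100 and untreated tumors no clock gene was past the threshold, and in limma 0% of the 16613 genes tested were, although 2408 genes, 2 of the 10 clock genes among them (Dbp and Tef), had an unadjusted p under 0.05. edgeR called 1 gene and DESeq2 39, and neither called any of the 10. The log2 differences (ADU-S100 minus untreated) were -0.16 (95% interval -0.32 to 0.00) for Arntl, 0.40 (0.07 to 0.74) for Dbp and 0.29 (0.08 to 0.51) for Tef. ADU-S100 tumor 7 had the highest Arntl of its group (1019.8 normalized counts), above the untreated range, and the lowest Dbp (177) and Tef (743), both within the untreated range. The other 7 ADU-S100 tumors had 645 to 900.0 of Arntl, 271 to 366 of Dbp and 1009.8 to 1393 of Tef.

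The remaining comparisons share tumors with those above, so their values are given side by side without separate p-values. They also reuse the combination or untreated tumors in which the genes were noticed, so their counts of called genes were fixed in part by the selection and are not read further. Anti-LTβR minus untreated gave log2 differences of -0.84 for Arntl, 1.42 for Dbp, 0.76 for Tef, 1.71 for Hlf, 0.82 for Per2 and 0.81 for Per3, and 7 of the 10 genes were past the threshold where 15.3% of all genes were. Combination minus anti-LTβR gave -0.55 for Arntl, 0.46 for Dbp, 0.28 for Tef, 0.86 for Hlf, -0.32 for Clock and -0.24 for Nfil3, the 6 genes called, against 26.6% of all genes. In libraries above 14 M recovered reads, 2 of these 6 calls (Arntl and Hlf) were made, against 8.54% of all genes. Combination minus ADU-S100 gave -1.22 for Arntl, 1.47 for Dbp, 0.75 for Tef and 2.25 for Hlf, and 8 of the 10 genes were called, against 46.2% of all genes. Markers of other cell types were past the threshold in these comparisons as well. All 5 fibroblast and all 5 endothelial markers were higher in combination than in anti-LTβR and than in ADU-S100 tumors, and Krt8, Krt18 and Krt19 were lower in both. Of the leukocyte markers, 2 of 5 were called higher in combination than in anti-LTβR tumors and 5 of 5 than in ADU-S100 tumors. Between anti-LTβR and untreated tumors 3 of 5 leukocyte markers and 1 of 5 endothelial markers were called higher, 3 of 5 epithelial markers lower and no fibroblast marker. Their part in the differences of the clock genes was not tested.

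**Figure D2:**
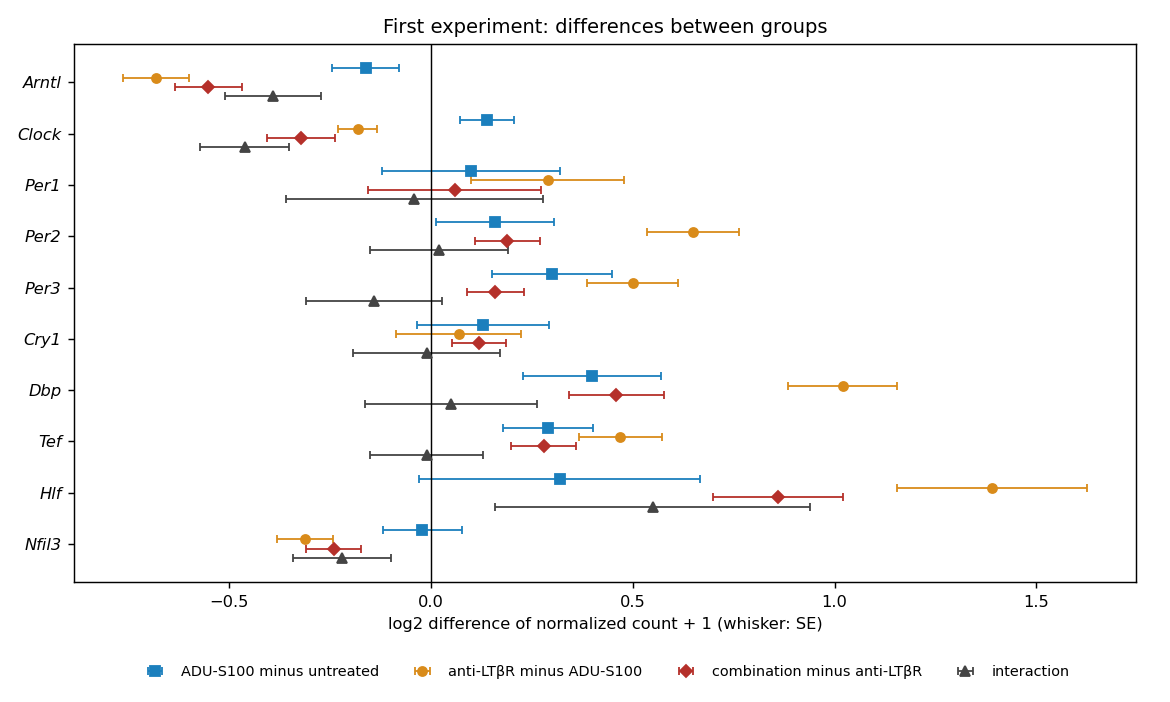
Log2 differences of normalized count + 1 (x axis) for the 10 genes (y axis) in the first experiment, with SE as whiskers, for ADU-S100 minus untreated, anti-LTβR minus ADU-S100, combination minus anti-LTβR and the interaction; the interaction is the difference between combination and anti-LTβR minus that between ADU-S100 and untreated. Among these, the points of anti-LTβR minus ADU-S100 lie farthest from 0 for 8 of the 10 genes, all but Clock and Cry1. The interaction of Arntl (-0.39), Clock (-0.46) and Nfil3 (-0.22) lies below 0 by more than its SE.

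The interaction asks whether ADU-S100 changed a gene differently in the presence of anti-LTβR than in its absence. It was past the threshold for 2 of the 10 genes, against 18.4% of the 17649 genes tested, a share near that of all genes. The interaction includes the combination and untreated tumors in which the genes were noticed, so its values for the 10 genes are not independent of the selection. Arntl had an interaction of -0.39 (SE 0.119, limma adjusted p = 0.0230), the difference of -0.55 with and -0.16 without anti-LTβR. Clock had an interaction of -0.46 (SE 0.110, limma adjusted p = 0.00474), and its 2 differences were opposite in sign, at -0.32 with and 0.14 without anti-LTβR. The call for Arntl was lost in libraries above 14 M recovered reads (-0.36, limma adjusted p = 0.0980), where 8.84% of all genes were called. For Dbp (0.05, 95% interval -0.36 to 0.47), Tef (-0.01, -0.29 to 0.26), Per2 (0.02, -0.31 to 0.36), Per3 (-0.14, -0.47 to 0.19) and Hlf (0.55, -0.22 to 1.31) the interaction was not past the threshold. In the same test all 5 fibroblast and 4 of 5 endothelial markers were past the threshold with a positive interaction, with fibroblast sums of 39746 to 114072 in ADU-S100 and 100606 to 372656 in combination tumors. Their part in the interaction of Arntl and Clock was not tested.

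Other components of the clock were taken as a list. Of 16 further clock genes, 15 were tested between anti-LTβR and ADU-S100 and none was past the threshold. Among them, the log2 difference was 0.17 (SE 0.0594, limma adjusted p = 0.0952) for Nr1d1, the repressor of Arntl, and 0.17 (SE 0.0873, adjusted p = 0.260) for Nr1d2. It was 0.19 (SE 0.0661, adjusted p = 0.0961) for Bhlhe41, 0.28 (SE 0.109, adjusted p = 0.125) for Cry2 and -0.87 (SE 0.256, adjusted p = 0.0516) for Npas2, a paralog of Clock. Between combination and untreated tumors 11 of 15 were called, 7 higher and 4 lower, where 43.2% of all genes were called. Among those higher, the log2 differences were 0.48 for Nr1d1, 0.27 for Nr1d2, 0.47 for Cry2, 0.49 for Bhlhe41, 0.92 for Rora and 0.37 for Timeless, and among those lower they were -0.12 for Csnk1d, -0.14 for Csnk1e and -0.63 for Fbxl21. Nr1d1 averaged 1589 ± 315, 1981 ± 178, 2224 ± 172 and 2183 ± 230.4 normalized counts in untreated, ADU-S100, anti-LTβR and combination tumors (SD, n = 8 each). In the interaction 4 of 16 were called, against 18.4% of all genes, all negative, which were Nr1d1 (-0.37), Bhlhe41 (-0.32), Arntl2 (-0.53) and Csnk1d (-0.12). Of 6 output genes, only Leo1 was called between anti-LTβR and ADU-S100, with a log2 difference of -0.24 (SE 0.0399, limma adjusted p = 0.00564), and Usp2, Nampt, Rev1 (higher) and Leo1 (lower) were called between combination and untreated tumors. None of 6 glucocorticoid-induced genes and 1 of 7 immediate early genes (Junb, -0.21) were called between anti-LTβR and ADU-S100. Between combination and untreated tumors 3 of the 6 glucocorticoid-induced genes were called (Sgk1 higher, Errfi1 and Klf9 lower), as were 4 of the 7 immediate early genes (Egr1, Fos, Ier2 and Junb) and 6 of the 8 heat and cold responsive genes, all of them lower.

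The genes were next compared tumor by tumor within groups. Each tumor's log2 value was taken as a deviation from its group mean, so that differences between treatments did not enter, and all 45 pairs of the 10 genes were correlated over the 32 tumors with 100000 permutations of tumors within groups. After Benjamini-Hochberg adjustment over the 45 pairs, 7 pairs were past 0.05, 4 positive and 3 negative. Arntl and Tef had the strongest negative relation, with r = -0.72 and rho = -0.64 (permutation p = 3.00e-05 and 2.80e-04, adjusted p = 0.00135 and 0.00630). Without the 2 tumors farthest from the Arntl median, ADU-S100 tumor 7 and combination tumor 1, r was -0.61 and was still past the threshold (permutation test, adjusted p = 0.0300). Within single groups, r of Arntl with Tef was -0.90 with the combination, -0.83 with ADU-S100, -0.59 in untreated tumors and only -0.30 with anti-LTβR. Across all 17649 genes, Tef had the lowest correlation with Arntl of any gene, and 67 genes were lower than Dbp.

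Arntl and Dbp deviated in opposite directions, with r = -0.59 and rho = -0.51 (permutation p = 9.60e-04 and 0.00405, adjusted p = 0.00864 and 0.0364). This relation rested in part on those 2 tumors, since r was -0.44 without them and no longer past the threshold (permutation test, adjusted p = 0.132). Without ADU-S100 tumor 7 alone, r was -0.47 (adjusted p = 0.0635 by permutation). Within single groups of 8 tumors r was -0.92 with the combination, -0.75 with ADU-S100, -0.47 with anti-LTβR and -0.16 in untreated tumors. In the combination group, the tumors with the least Arntl, 6 and 5 (283 and 287 normalized counts), had the most Dbp (1218 and 986). Adjusting for the mean of the leukocyte markers left r at -0.61. No adjustment was made for the fibroblast, endothelial, epithelial or skeletal muscle markers, and their part in this relation was not tested.

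Dbp and Tef deviated in the same direction, with r = 0.66 and rho = 0.54 (permutation p = 5.50e-04 and 0.00374, adjusted p = 0.00619 and 0.0364). Here r was 0.95 with the combination, 0.86 with ADU-S100, 0.69 with anti-LTβR and 0.21 in untreated tumors. Without the 2 tumors farthest from the Dbp median r was 0.48, no longer past the threshold. Hlf, the third PAR bZIP gene, had r = 0.31 with Tef and 0.10 with Dbp, and its r of -0.46 with Arntl was not past the threshold (permutation test, adjusted p = 0.0539), although it was without ADU-S100 tumor 7 (-0.50, adjusted p = 0.0322 by permutation).

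Per2, Per3 and Cry1 formed a second set of pairs. Per2 and Per3 had r = 0.76 and rho = 0.76 (permutation p = 9.00e-05 and 6.00e-05, adjusted p = 0.00202 and 0.00270), with r between 0.65 and 0.79 in each of the 4 groups. Without the 2 tumors farthest from the Per2 median r was 0.65 (permutation test, adjusted p = 0.0300). Per3 and Cry1 had r = 0.69 and rho = 0.61 (permutation test, adjusted p = 0.00525 and 0.0150), and Per2 and Cry1 r = 0.58 and rho = 0.47 (permutation p = 0.00432 and 0.0124, adjusted p = 0.0278 and 0.0619). Both relations with Cry1 were high in untreated (0.69 and 0.58) and ADU-S100 tumors (0.88 and 0.84) and near 0 or low in anti-LTβR (0.09 and -0.15) and combination tumors (0.27 and 0.12). Without the 2 tumors farthest from the median of the first gene, r was 0.63 for Per3 with Cry1 and 0.29 for Per2 with Cry1, the latter no longer past the threshold (permutation test, adjusted p = 0.0300 and 0.545). Clock and Per1 had r = -0.55 and rho = -0.47 (permutation p = 0.00246 and 0.0109, adjusted p = 0.0184 and 0.0619), and r was -0.40 without the 2 farthest tumors, no longer past the threshold (permutation test, adjusted p = 0.211). Clock and Arntl, whose products act as a pair, had r = 0.16 (permutation p = 0.436, adjusted p = 0.621).

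**Figure D3:**
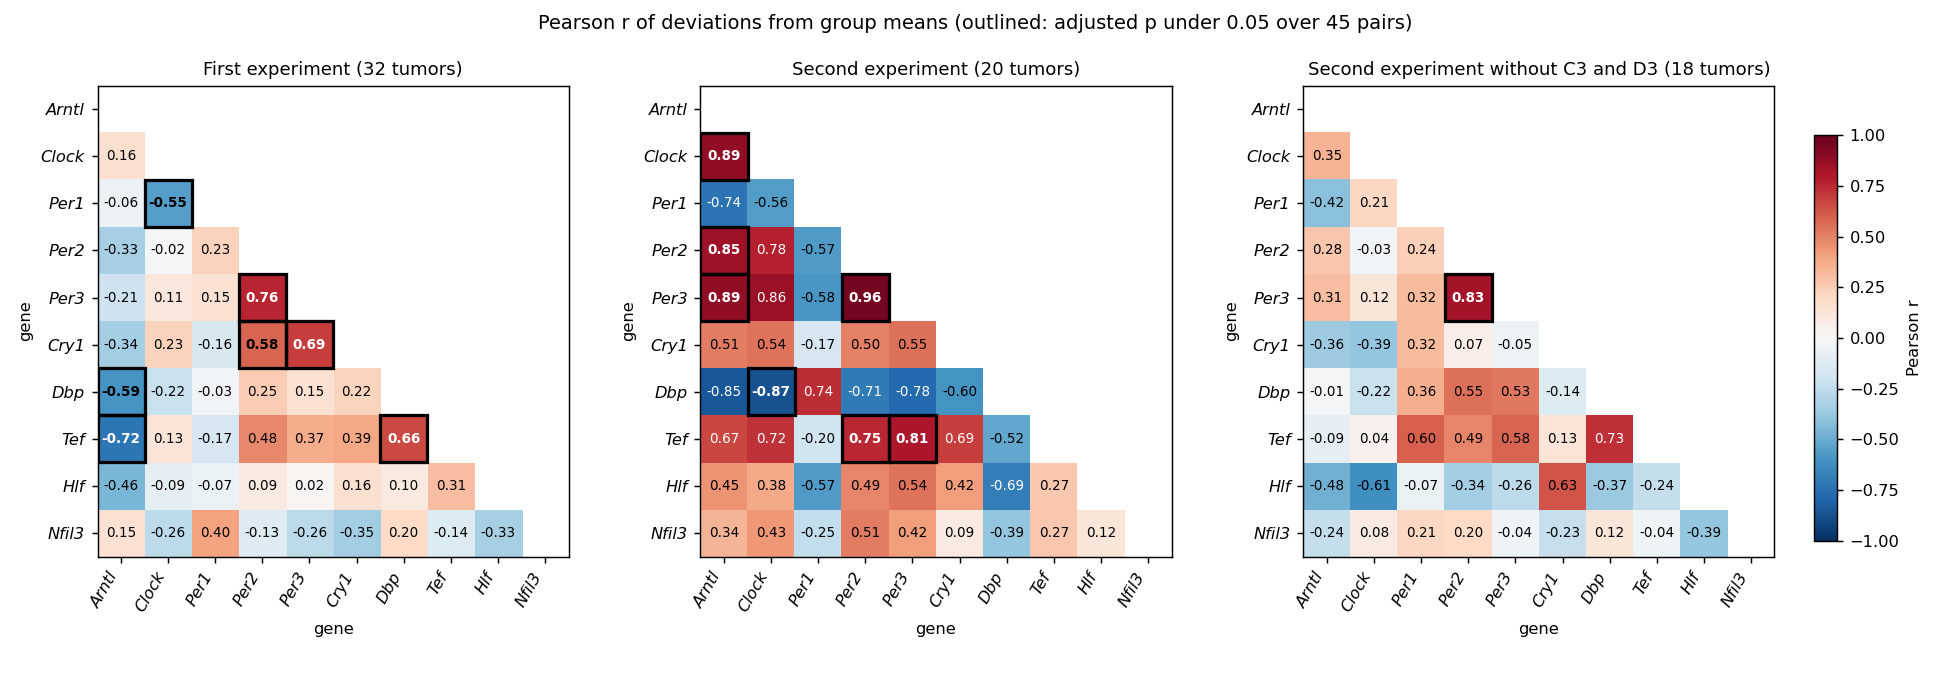
Pearson r of each pair of the 10 genes (x and y axes) over deviations from group means, in the first experiment (32 tumors), the second (20 tumors) and the second without C tumor 3 and D tumor 3 (18 tumors); color gives r from -1 to 1 and outlines mark an adjusted p under 0.05 over 45 pairs. Per2 with Per3 is outlined in all 3 panels, and most of the outlined cells of the second panel are not outlined in the third.

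The genes most like Arntl in the 32 tumors of the first experiment, leaving out the 10 clock genes, were Ctnna1 (r = 0.79), Map2 (0.76), Gm3571 (0.75), Mprip (0.74) and Gm41442 (0.71). Those most opposed were Slamf7 and Armcx3 (-0.72 each), Hoxc10 and Jam3 (-0.70 each) and 2510009E07Rik (-0.69). In 18 tumors of the second experiment the same 10 genes had r of 0.43 to 0.60 and -0.43 to -0.75 with Arntl, each with the sign seen in the first. With C tumor 3 and D tumor 3 included (20 tumors), 6 of the 10 had the opposite sign. These correlations share libraries, depth and normalization, and the 10 genes were the extremes of 17649.

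In the second experiment 2 libraries stood apart from the rest, and the comparisons are given with and without them. D tumor 3 had 8.72 M recovered reads, against up to 18.8 M in the others, with 10828 genes at 0 (at most 7112 in any other library) and a mean correlation with the other 19 libraries of 0.733. By the authors' scaling, 1 recovered read was worth 3.7775 normalized counts in D tumor 3. In the other 19 it was worth 0.7789 (B tumor 1) to 1.3816 (C tumor 3). C tumor 3 had a mean correlation of 0.840, and the other libraries lay between 0.856 and 0.931. Marker sums also varied among these tumors, from 216 to 30520.1 normalized counts for skeletal muscle and from 221 to 31534 for keratinocyte markers. In normalized counts, D tumor 3 had the highest epithelial sum (33940.4, against 3418 to 11178 in the other 19), the highest leukocyte sum (18997, against 3883 to 10581) and the highest keratinocyte sum of the 20. These rankings depend on the scaling of that library. The part of the marker sums in the values below was not tested.

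Arntl had normalized counts of 844, 808, 579, 849 and 699.7 in tumors 1 to 5 of set A and 372, 548, 356, 392 and 411 in set B. In set C it had 532, 455, 177, 297 and 374, and in set D 602, 572, 117, 501 and 472. All tumors of B and C were below all of A, and D overlapped A because D tumor 1 (602) was above A tumor 3 (579). Dbp had 292, 343, 186, 285 and 296 in A, 591, 568, 401, 579 and 606 in B, 440.4, 466, 1482, 661 and 800.4 in C, and 245, 266, 1723, 216 and 289.8 in D. Sets B and C were thus above A for Dbp, while 4 of 5 D tumors lay within the range of A and D tumor 3 had the highest normalized count of all 20. That ranking depends on the scaling, as 1 recovered read was worth 3.7775 normalized counts in D tumor 3 and 1.3816 in C tumor 3. Tef averaged 881 ± 83.5, 1300.5 ± 90.7, 1366 ± 458 and 774 ± 152 in A to D (SD, n = 5 each), and Per3 213 ± 32.6, 303 ± 54.7, 263 ± 109.6 and 103 ± 56.5.

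Set D, named Combination in the description labels, had lower means than set A for Tef, Per3 and Per2 (77.8 ± 48.4 against 122 ± 45.9 for Per2). Between D and A, no clock gene was past the threshold in limma, where 1.05% of the 15096 genes were called, and 3 of the 10 had an unadjusted p under 0.05. DESeq2 and edgeR called none of the 10 either, where they called 11.6% and 1.05% of all genes. The log2 differences (D minus A) were -0.92 (95% interval -1.73 to -0.11, limma adjusted p = 0.239) for Arntl, 0.43 (-0.57 to 1.44, adjusted p = 0.603) for Dbp and -0.21 (-0.60 to 0.19, adjusted p = 0.519) for Tef. They were -1.37 (-2.46 to -0.28, adjusted p = 0.213) for Per3 and -1.06 (-1.79 to -0.33, adjusted p = 0.170) for Clock, the 2 genes whose tumors did not overlap between D and A, as did not 12.4% of all genes. Without D tumor 3, Clock was called (-0.67, SE 0.133, limma adjusted p = 0.0190), where 9.12% of all genes were. The other differences without this tumor were -0.48 (SE 0.149, limma adjusted p = 0.0637) for Arntl, -0.79 (SE 0.224, adjusted p = 0.0529) for Per3, -0.07 (SE 0.114, adjusted p = 0.732) for Tef and -0.12 (SE 0.193, adjusted p = 0.714) for Dbp. Keratinocyte marker sums did not overlap, at 281 to 1718 in A and 2137 to 31534 in D. Sums of the other cell type lists overlapped between A and D, with fibroblast sums of 22378 to 60457 and 54847 to 245555. The part of these markers in the differences between D and A was not tested.

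Between C and B no clock gene was called in limma, edgeR or DESeq2, none had an unadjusted p under 0.05, and 0.0924% of the 15154 genes were called in limma, 0% in edgeR and 3.33% in DESeq2. The log2 differences (C minus B) were -0.26 (95% interval -0.80 to 0.28, limma adjusted p = 0.763) for Arntl, 0.35 (-0.24 to 0.95, adjusted p = 0.759) for Dbp and 0.01 (-0.41 to 0.42, adjusted p = 0.991) for Tef. Without C tumor 3 they were -0.02 (SE 0.186, limma adjusted p = 0.989) for Arntl, 0.08 (SE 0.198, adjusted p = 0.956) for Dbp and 0.18 (SE 0.149, adjusted p = 0.801) for Tef. The same contrast by description label in the first experiment, anti-LTβR minus ADU-S100, was -0.68 for Arntl, 1.02 for Dbp and 0.47 for Tef. The difference between the 2 experiments was not tested.

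Sets B and C were compared with A after their values had been seen. In limma no clock gene was past the threshold in either, and 0% (B) and 0.279% (C) of all genes were called. The log2 differences (B minus A, then C minus A) were -0.86 and -1.12 for Arntl, 0.98 and 1.33 for Dbp, 0.56 and 0.57 for Tef and 1.61 and 1.62 for Hlf. The tumors did not overlap between B and A for 3 of the 10 genes (1.30% of all genes) and between C and A for 4 of the 10 (6.33% of all genes). DESeq2 called Arntl, Dbp and Tef in B minus A (adjusted p = 2.02e-04, 2.02e-04 and 5.54e-07) and also Hlf in C minus A, where it called 1.57% and 5.49% of all genes, whereas edgeR called none of the 10 and 0% and 0.131% of all genes. The unadjusted p was under 0.05 for 1105 and 2452 genes in limma, with 6 of the 10 clock genes among them in each comparison. Without C tumor 3, limma called Arntl (-0.88), Dbp (1.06), Tef (0.74) and Clock (-0.53) in C minus A, where 2.31% of all genes were called.

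**Figure D4:**
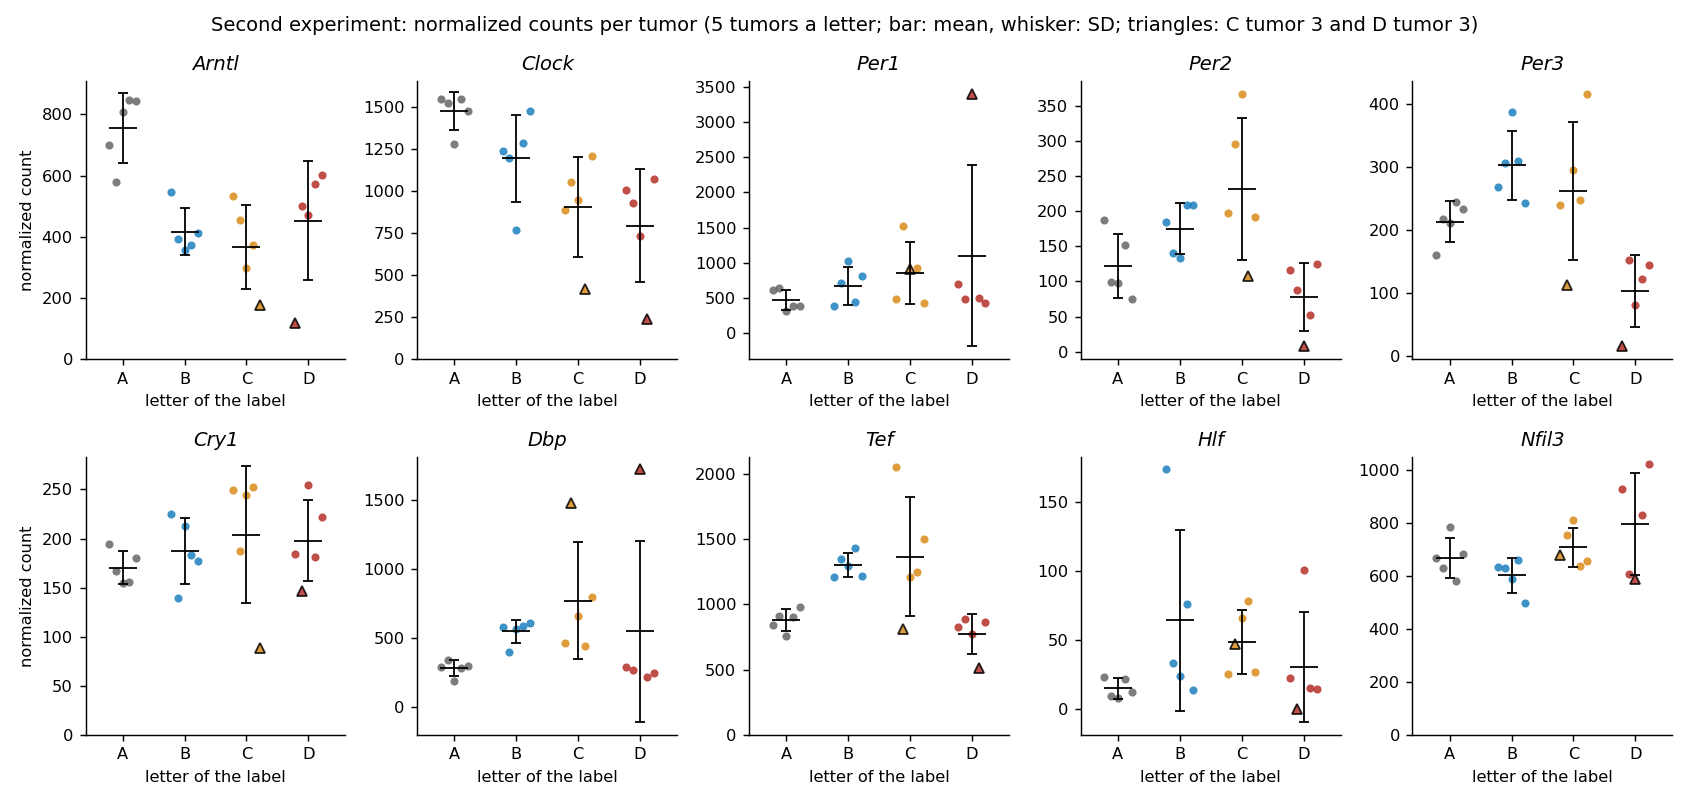
Normalized counts (y axis) of the 10 genes in the second experiment, by letter of the label (x axis), with 1 point per tumor, the mean as a bar and the SD as a whisker; triangles mark C tumor 3 and D tumor 3. In normalized counts, D tumor 3 has the lowest Arntl (117) and the highest Dbp (1723) of the 20 tumors. In that library 1 recovered read was worth 3.7775 normalized counts. The other D tumors have Dbp of 216 to 289.8.

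Tumor by tumor, the relation of Per2 and Per3 was found in both experiments. Over the 20 tumors of the second, r was 0.96 and rho 0.94 (permutation p = 3.00e-05 and 2.00e-05, adjusted p = 0.00135 and 9.00e-04), and over the 18 tumors without C tumor 3 and D tumor 3 r was 0.83 and rho 0.82 (permutation p = 1.30e-04 and 3.40e-04, adjusted p = 0.00585 and 0.0153). With all 20 tumors 7 of 45 pairs were past the threshold, and without those 2 tumors Per2 with Per3 was the only pair that was. Arntl and Dbp had r = -0.85 and rho = -0.60 over 20 tumors (permutation p = 0.0196 and 0.0296, adjusted p = 0.0728 and 0.111) and r = -0.01 and rho = -0.22 over 18 (permutation p = 0.973 and 0.438, adjusted p = 0.973 and 0.704), so that the relation rested on C tumor 3 and D tumor 3. Arntl and Tef had r = 0.67 over 20 tumors (permutation p = 0.0265, adjusted p = 0.0728) and -0.09 over 18 (permutation p = 0.825, adjusted p = 0.933). Dbp and Tef had r = -0.52 over 20 tumors and 0.73 over 18 (permutation p = 0.0749 and 0.00652, adjusted p = 0.141 and 0.147), so that the sign changed without the 2 tumors.

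**Figure D5:**
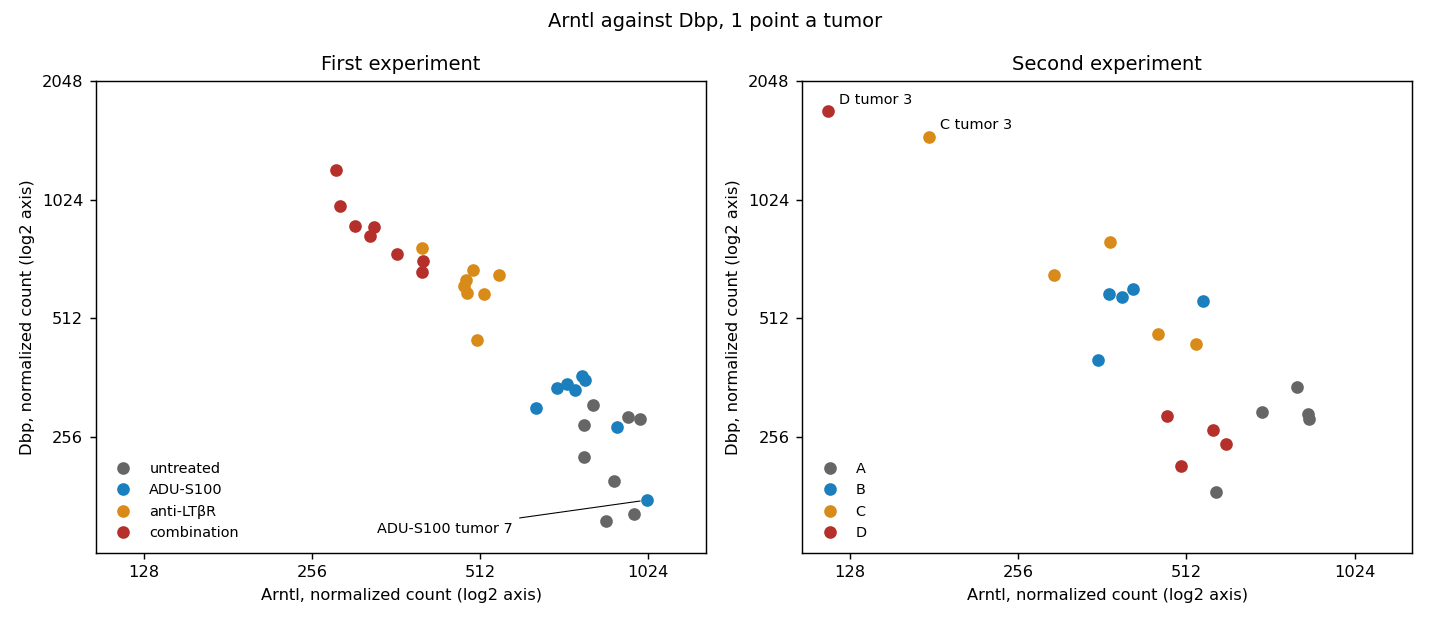
Normalized counts of Arntl (x axis, log2) and Dbp (y axis, log2) in each tumor of the first (left) and second (right) experiment, colored by group or letter. In the first experiment tumors run from high Arntl and low Dbp (untreated, and ADU-S100 tumor 7 at 1019.8 and 177) to low Arntl and high Dbp (combination), and in the second C tumor 3 and D tumor 3 lie far from the other 18.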

How the data were processed

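Bulk poly(A) RNA-seq of individual tumors was deposited as tables for 32 tumors (ST#23) and for 52 (ST#23 and ST#15). Both hold reads per gene scaled per library by the authors, and this deposited signal is called the normalized count here. Values of the table of 32 are fractional estimates (as low as 1.38e-45), from which whole reads were not recovered. Per the labels' processing notes, cutadapt 1.9, FastQC, HISAT2, StringTie, STAR, Partek, DESeq2 and edgeR were used with build mm39, and they do not state which aligner made which table. The methods of the paper name HISAT2 and StringTie, with an Ensembl genome, for the mouse tumors and STAR for the clinical specimens. First-experiment values came from the table of 32 and second-experiment values from the table of 52, so levels are compared within an experiment only. In the table of 52, whole reads were recovered as multiples of what 1 read was worth (100.0% of values came out whole in each library), with 12.8 to 15.6 M reads per library in ST#23 and 8.72 to 18.8 M in ST#15. No column of a sample outside the series was present. The authors' enrichment results were not used.

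limma 3.58.1 (R 4.3.3, trend) was fitted to log2(normalized count + 1) over all genes past filterByExpr (count minimum 10), with the libraries of both groups compared, or all 32 for the interaction. The tests were two-sided with Benjamini-Hochberg adjustment, and a gene was called at an adjusted p below 0.05. Log2 differences on this scale understate the change of low genes such as Hlf. edgeR 4.0.16 (quasi-likelihood) and DESeq2 1.42.0 on the recovered reads were alternatives. Scripts were tested on simulated data. Levels per kilobase used the union of exons of the GRCm38 annotation, and coordinates and promoters are of GRCm38 and not of the build of the tables, from which none was taken. Correlations used deviations from group means, two-sided permutation tests within groups (100000 resamples, smallest possible p 1e-05) and adjustment over 45 pairs. Where groups had 8 or 5 tumors, r within a group is a description.

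The 10 genes, the lists of other clock, clock output, glucocorticoid, heat and cold, immediate early and cell type marker genes, and the tests were chosen with earlier results of these data known. Named genes were all 10, those lists, and the 5 genes with the highest and the 5 with the lowest correlation with Arntl.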

Additional observations from a re-analysis of the deposited data

Results flagged for a closer look

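The effect of adding ADU-S100 differed with and without anti-LTβR for Clock (interaction -0.46) and Arntl (-0.39) in limma, 2 of the 10 genes, a share near the 18.4% of all genes called, in a test that includes the tumors in which the genes were noticed. The Arntl call was lost in libraries above 14 M recovered reads (limma adjusted p = 0.0980).

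Among 80 sets of values (10 genes in 8 groups), 8 held a tumor far from the others of its group by Dixon's test, where chance gives about 1 in 20. These were Arntl in B tumor 2 (548 normalized counts) and D tumor 3 (117), Clock in A tumor 2 (1280.0), Per1 in D tumor 3 (3399.7), Dbp in B tumor 3 (401) and D tumor 3 (1723), Hlf in D tumor 4 (101) and Nfil3 in combination tumor 6 (365). D tumor 3, with 3 of the 8 values, was the library with 8.72 M recovered reads and 3.7775 normalized counts per recovered read. D tumor 4, with the high Hlf, had a skeletal muscle marker sum of 30520.1, an adipocyte sum of 13824, an endothelial sum of 4985 and a fibroblast sum of 245555, against medians of 12679, 2003, 1463 and 94436 in set D.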

How the results depend on the processing

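With a fold change of at least 2 also required, 5 of the 10 genes were called between combination and untreated (6.12% of all genes; this comparison chose the genes, so the count is no test of them), 2 between anti-LTβR and ADU-S100 (0.601%), 2 between anti-LTβR and untreated (1.04%), 3 between combination and ADU-S100 (6.17%), and 0 between combination and anti-LTβR (2.11%) and in the interaction (3.06%). Replicate numbers were not treated as pairs, since no comparison had every same-numbered pair correlated above 0.1. The mean correlation of same-numbered pairs ran from -0.0867 (anti-LTβR and untreated) to 0.187 (ADU-S100 and untreated). This rule cannot tell whether tumors of the same number shared a batch. With the replicate block 5 genes were called between anti-LTβR and ADU-S100 (Clock, Nfil3 and Tef were lost, limma adjusted p = 0.0816, 0.0521 and 0.0555). The block gave 22 pairs past the threshold in the second experiment, with r = -0.92 for Arntl and Dbp (permutation test, adjusted p = 0.00252), and moved no other count of the 10 genes or of their pairs by over 1.5 times. Over all genes it lowered the called share to 2.67% between anti-LTβR and ADU-S100, 9.95% between anti-LTβR and untreated, 0.272% between D and A, 0.0266% between C and A and 0% between C and B. The Clock call was also lost with no filter (0.0582) and with all 4 groups in one fit (0.192, limma adjusted p). Settings named by depth or tumor number were chosen after seeing the data. In libraries above 14 M reads, 2 genes were called between combination and anti-LTβR and 1 in the interaction, 3 pairs were past the threshold, and Arntl with Dbp had r = -0.48 (permutation test, adjusted p = 0.150). Without the 2 farthest tumors 3 pairs were past in the first experiment (Arntl with Dbp -0.44) and 1 in the second, as also without C tumor 3 and D tumor 3. Without ADU-S100 tumor 7, r of Arntl with Dbp was -0.47.

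In the second experiment, leaving out single tumors gave 0 to 1 gene called between D and A (1 without D tumor 3, also with edgeR) and 0 to 4 between C and A (4 without C tumor 3, also with edgeR). DESeq2 called 3 genes between B and A and 4 between C and A. No called gene changed sign. Uncalled log2 differences that did were Per1 between combination and anti-LTβR above 14 M reads (-0.09) and, in the interaction, Cry1 (0.01) and Per2 (-0.12) above 14 M reads, and Per1 (0.04 and 0.06) and Tef (0.01 and 0.02) in edgeR and DESeq2. Between D and A they were Hlf (1.09 in edgeR, 1.10 in DESeq2, 1.41 in edgeR without D tumor 3, -0.74 to 0.93 leaving out single tumors) and Dbp (-0.12 without D tumor 3, -0.10 in edgeR without it, -0.12 to 0.63 leaving out single tumors). Between C and B they were Hlf (-0.40 in edgeR, -0.38 in DESeq2, -0.39 in edgeR without C tumor 3, -0.38 to 0.50 leaving out single tumors), Cry1 (-0.06 to 0.32), Tef (-0.16 to 0.18) and Arntl (0.00 in edgeR without C tumor 3). The cause of these changes was not tested. Depth limits Hlf most, with 6 to 124 recovered reads per library in the first experiment and 0 in D tumor 3.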
